A study of Mus musculus with 8 samples.

Results

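Cytosolic ribosomal protein genes are described here across 4 groups of 2 mouse Affymetrix arrays. A probe set, the group of short oligonucleotides that together measure a transcript, was counted as a member when the platform annotation gave it exactly 1 symbol that reads Rpl, Rps or Rplp followed by a number, with at most a closing a, l or x. This rule found 98 probe sets for 45 genes, among 34945 probe sets and 18193 genes with 1 symbol. The large subunit (Rpl and Rplp symbols) had 44 probe sets for 24 genes and the small subunit (Rps symbols) 54 probe sets for 21 genes. A further 110 probe sets that list a ribosomal protein beside other symbols were left out, and so were symbols outside this form, such as predicted pseudogene copies and the Rps6k kinases. RefSeq lists 82 symbols of this form, and those without a probe set of their own were not used here. Rps4l meets the rule and was kept, although RefSeq annotates it as a transcribed pseudogene, and the other 44 members are annotated as protein coding genes.

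The arrays hold RNA of BCR-ABL1 cells from bone marrow, sorted as GFP-positive or GFP-negative, and of cells labelled as splenic B cells stimulated with LPS and IL4, sorted the same way. All 4 groups carry the Aid-GFP reporter, in which green fluorescent protein marks cells that express the cytidine deaminase AID. The comparisons ask how reporter-positive cells differ from reporter-negative cells in each source, whether that difference is the same in both, and how the sources differ at a matched reporter state. The labels do not give age, strain, how BCR-ABL1 was introduced, the purity of the cells or whether the 2 arrays of a group came from different animals, so p-values measure only the spread between these arrays.

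Each cytosolic ribosome is built from a large and a small subunit, whose proteins are made in matched amounts and assembled on ribosomal RNA in the nucleolus. Most of their mRNAs begin with a run of pyrimidines, the terminal oligopyrimidine (TOP) tract, through which mTOR signalling and the protein LARP1 control their translation. B cells that respond to LPS and IL4 grow and make more ribosomes before they divide, and a few ribosomal proteins, such as Rpl11, also act outside the ribosome, in that case as an inhibitor of Mdm2.

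Windows around the annotated start held a long run of pyrimidines in some members and only short runs in others. A window misses the tract where the annotated start is not the one used, so it cannot show that a member lacks it. The annotated starts of Rpl19, for example, gave longest runs of 5 and 11 bases. The RefSeq promoter table (GRCm38.p6) held 47 windows for 39 of the 45 genes, and Rpl7, Rpl8, Rps14, Rps20, Rps29 and Rps4l had no window. Windows of 30 bases, 15 before the start and 15 from it onwards, are printed 5′ to 3′ in the gene's own direction, with the longest run of C or T in capitals. The first 6 were chosen, with their values known, as members with a run at the start whose probe sets differed between groups below. They lie at chr9:120571502-120571531 (plus strand), chr4:86857353-86857382 (minus strand), chr3:90213634-90213663 (minus strand), chr17:33955651-33955680 (minus strand), chr2:39005117-39005146 (minus strand) and chr7:45128731-45128760 (minus strand).
Rpl14: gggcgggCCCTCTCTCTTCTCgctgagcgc
Rps6: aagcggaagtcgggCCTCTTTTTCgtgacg
Rps27: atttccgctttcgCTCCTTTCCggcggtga
Rps18: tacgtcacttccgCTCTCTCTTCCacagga
Rpl35: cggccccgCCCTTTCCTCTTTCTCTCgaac
Rpl13a: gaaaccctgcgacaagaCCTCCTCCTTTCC

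In these 6 windows the run spans or follows the start and is between 9 and 18 bases long. Others that differed between groups below, the paralogs Rps27l and Rpl39l and the genes Rps4x, Rps3 and Rpl41, are shown for comparison, with Rpl39, the partner of Rpl39l. They lie at chr9:66946071-66946100 (plus strand), chr16:10170213-10170242 (plus strand), chrX:37085208-37085237 (minus strand), chrX:102189377-102189406 (minus strand), chr7:99483695-99483724 (minus strand) and chr10:128549154-128549183 (minus strand).
Rps27l: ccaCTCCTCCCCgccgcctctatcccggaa
Rpl39l: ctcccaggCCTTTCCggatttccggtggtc
Rpl39: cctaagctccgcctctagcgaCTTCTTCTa
Rps4x: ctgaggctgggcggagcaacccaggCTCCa
Rps3: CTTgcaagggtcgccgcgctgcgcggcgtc
Rpl41: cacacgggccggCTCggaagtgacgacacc

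In the first 2 of these the run ends before the start, in Rpl39 it lies 6 bases past it, in Rps4x the longest run has 4 bases, and in Rps3 and Rpl41 it has 3. Rps27l has another annotated start, whose longest run also has 4 bases. Over the 30 bases, a run of 6 or more C or T on the gene's own strand was found in 26 of 47 member windows (55.3%) and in 29.2% of all 32851 promoter windows of the table. On the opposite strand it was found in 2 of 47 member windows (4.26%) and in 32.4% of all windows. The letters CTTTC stood on the gene's own strand in 11 of 47 member windows (23.4%) and in 4.05% of all windows, and on the opposite strand in 0 member windows and 3.6% of all windows. The letters CTCTT, which can overlap CTTTC, stood on the gene's own strand in 7 member windows (14.9%) and in 3.96% of all windows, and on the opposite strand in 0 member windows and 4.2% of all windows. Over the full 300 bases, CGGAAG on either strand was found in 29 of 47 member windows (61.7%) and in 16.9% of all windows. These are matches of letters, described without a test.

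The arrays were alike in 3 groups and stood apart in the fourth. The trimmed mean signal as deposited was 591 to 596 on the 6 arrays of BCR-ABL1 GFP-positive, BCR-ABL1 GFP-negative and spleen GFP-positive cells and 479 to 499.7 on the spleen GFP-negative arrays. The ratio of the Gapdh 3′ to 5′ control probe sets, which rises as RNA or its labelling is shortened, was 1.40 to 1.48 on those 6 arrays and 1.88 to 1.93 on the spleen GFP-negative arrays. For Actb it was 1.26 to 1.37 on those 6 arrays and 1.49 to 1.53 on the spleen GFP-negative arrays. Summed signals of 8 myeloid markers were 303 to 326 in spleen GFP-positive cells, against 72275 to 74022 in spleen GFP-negative cells, and those of 8 T and NK cell markers were 638 to 650.0 against 14566 to 16074. In spleen GFP-positive cells the myeloid markers Camp, Ngp, Csf1r and Itgam and the T cell marker Cd3g were at the floor of 32. Itgam was also close to the floor in spleen GFP-negative cells, with 47.3 and 34, while the other 7 myeloid markers had means above 10 times the floor there. The 5 B lineage markers with a probe set were summed to 26054 to 26348 in spleen GFP-positive cells and 33016 to 33375 in spleen GFP-negative cells. In BCR-ABL1 cells the 4 pre-B markers were summed to 27731 to 28445 (GFP-positive) and 25846 to 26642 (GFP-negative). In splenic cells they were summed to 947 to 1339 (GFP-positive) and 2012 to 2498 (GFP-negative). Most of the BCR-ABL1 sums came from Vpreb1 and Dntt. Igll1 went the other way, with 476 to 613 in BCR-ABL1 cells. It had 1021 and 673 in spleen GFP-positive cells and 2230 and 1764 in spleen GFP-negative cells. In RNA from a mixture of cells, fewer cells of a type and less RNA per cell cannot be told apart.

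Signals below are quantile normalized, which gives all 8 arrays the same distribution of values, and those under 32 were set to 32. A member was called when its adjusted p in limma, over all 27022 probe sets tested, was under 0.05. Differences are on the log2 scale, first-named group minus the other, with standard errors (n = 2 arrays a group). A signal depends on the probes as well as on the transcript, so groups were compared within a probe set, and an order of probe sets by signal is not an order of transcripts by level. Of the members, 94 probe sets for 43 genes were bright enough to be tested, 43 of the large and 51 of the small subunit. The 4 others were the single probe sets of Rpl37 and Rps16 and 1 of the probe sets of Rps3 and of Rps6. The Rps16 probe set, 1455835_at, was at the floor of 32 on all 8 arrays, and Rpl37 (1438291_x_at) had 63.5 and 46.5 in spleen GFP-positive cells and was at the floor on both spleen GFP-negative arrays.

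Most members had probe sets among the strongest signals of the array. The brightest 1% of all probe sets, which began at a signal of 8036, held 451 probe sets, of which 62 (13.7%) were members, for 33 genes. The brightest member probe set was that of Rpl41 (1455578_x_at), the smallest ribosomal protein, with 20088 and 21955 in BCR-ABL1 GFP-positive cells and 20088 and 20088 in BCR-ABL1 GFP-negative cells. It had 19564 and 21955 in spleen GFP-positive cells and 19423 and 19564 in spleen GFP-negative cells. It was not called in any of the 5 comparisons, but it held rank 1 to 5 on every array, and quantile normalization gives a rank the same value on all arrays, so its range is compressed at the top of the scale. The split at the brightest 1%, used below, was chosen after the values were seen and is a description without a test.

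In BCR-ABL1 cells no ribosomal protein probe set was called different between GFP-positive and GFP-negative cells. Of 94 tested, 0 were called higher and 0 lower in limma, where 1.57% and 1.23% of all 27022 probe sets were called higher and lower. At an unadjusted p under 0.05 there were 2 higher and 1 lower, against 1763 and 1354 of all 27022 probe sets. The smallest adjusted p of a member was 0.325. The median difference was 0.0062 for the large subunit and -0.0024 for the small subunit, and -0.0023 over all probe sets. All 94 differences lay between -0.53 (Rps4l) and 0.11 (Rps27l), and in the 62 brightest they lay between -0.048 and 0.068. Rplp0, a protein of the ribosomal stalk that binds elongation factors, had 14483 and 14754 in GFP-positive cells and 13949 and 14644 in GFP-negative cells, and these ranges overlap.

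Rps27l, a paralog of Rps27 that p53 induces in human cells, had 9517 and 9226 in BCR-ABL1 GFP-positive cells and 8504 and 8867 in BCR-ABL1 GFP-negative cells. The groups did not overlap, but the difference of 0.11 ± 0.04 was not called (adjusted p = 0.393). Rps6, the substrate of the S6 kinases downstream of mTOR, had 5551 and 5461 in GFP-positive cells and 5148 and 5065 in GFP-negative cells. Here too the groups did not overlap and the difference of 0.11 ± 0.07 was not called (adjusted p = 0.7). Rps4l had 33.8 and 34.7 in GFP-positive cells, close to the floor, and 44 and 55.8 in GFP-negative cells, with a difference of -0.53 ± 0.20 (adjusted p = 0.325).

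**Figure D1:**
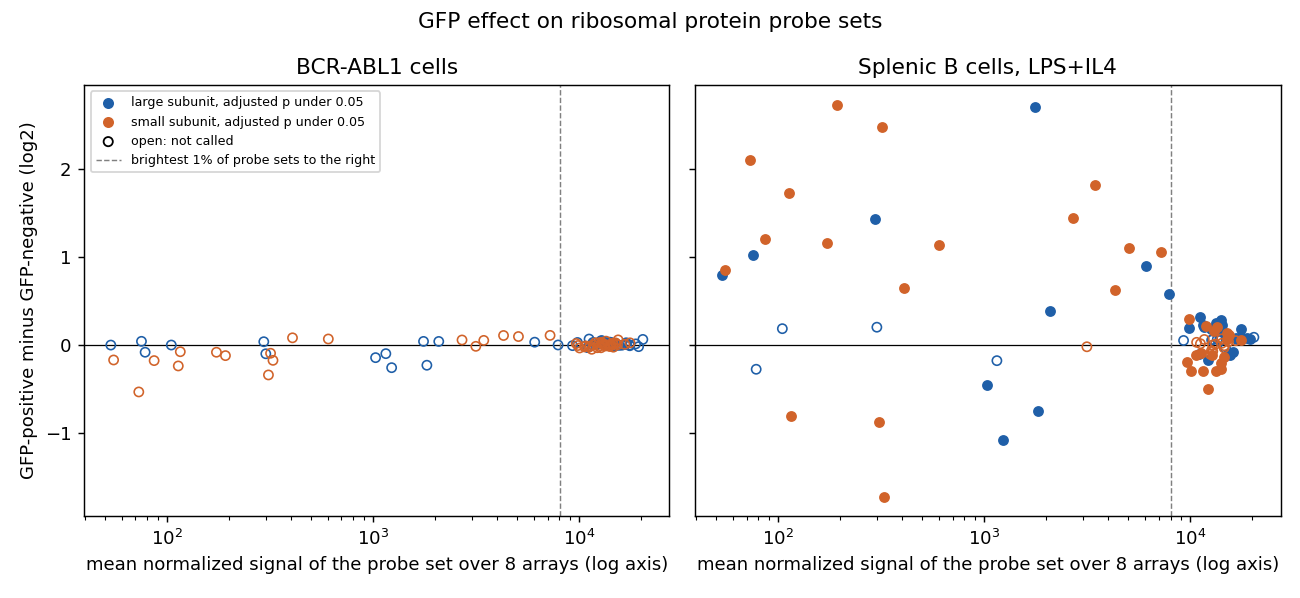
GFP-positive minus GFP-negative difference (log2, y axis) of the 94 tested probe sets against their mean normalized signal over 8 arrays (log axis), in BCR-ABL1 cells (left) and splenic cells labelled as B cells (right). Each point is 1 probe set, filled where the adjusted p was under 0.05, and the dashed line marks the brightest 1% of all probe sets. In BCR-ABL1 cells every point is open and lies between -0.53 and 0.11, while in splenic cells the points right of the line stay between -0.50 and 0.32 and those left of it spread between -1.72 and 2.73.

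In splenic cells many ribosomal protein probe sets differed between GFP-positive and GFP-negative cells, mostly by little. The labels name these cells B cells, but the GFP-negative arrays also had the myeloid, T and NK cell markers given above. Of 94 tested, 45 were called higher and 22 lower in GFP-positive cells, 47.9% and 23.4% of the members. Over all 27022 probe sets, 44.9% were called higher and 33.3% lower. On this normalized scale the higher share thus lies near the background and the lower share below it, a difference that was not tested. The median difference was 0.092 for the large subunit (23 of 43 higher, 8 lower) and 0.039 for the small subunit (22 of 51 higher, 14 lower), against 0.17 over all probe sets. The split between higher and lower depended on the scale of the arrays: on the deposited scale 41 were higher and 22 lower, and after all arrays were shifted to 1 common median 67 were higher and 6 lower. Over all 27022 probe sets, 13921 were higher and 7434 lower on the deposited scale, and 15412 and 6277 on a common median. Higher calls made up 65.1% of the members' calls and 65.2% of all calls on the deposited scale. On a common median they made up 91.8% and 71.1%. On those scales the median over all probe sets was 0.35 and 0.51, and the median over all members was 0.036 and 0.20, which is -0.32 relative to all probe sets on both. On the normalized scale the members' median was 0.067, or -0.10 relative to all probe sets. The lower count was also 11 with eBayes without trend and 13 with no filter on low signals.

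The size of the difference in splenic cells went with the signal of the probe set. In the 62 members among the brightest 1%, 24 were called higher and 16 lower, the median size of the difference was 0.10, and none reached a 2-fold difference in either direction. In the other 389 probe sets of the brightest 1%, 191 were higher and 98 lower, with a median size of 0.21. In the 32 tested members below the brightest 1%, 21 were called higher and 6 lower, the median difference was 0.82, and 14 were higher and 2 lower by 2-fold or more. Over all tested probe sets below the brightest 1%, 44.8% were higher and 33.4% lower, with a median of 0.18, and the members' share is a description without a test. Of these 32, the 18 of the small subunit had a median of 1.12 and the 14 of the large subunit a median of 0.30. With the brightest tested probe set of each gene, 21 of 43 genes were higher and 7 lower.

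Among members with bright probe sets and a known role of their own, the differences in splenic cells were small. Rplp0 had 14934 and 15269 in GFP-positive cells and 12101 and 12691 in GFP-negative cells, groups that did not overlap, and it rose by 0.29 ± 0.03 (adjusted p = 9.56e-05). Rps19, mutated in Diamond-Blackfan anaemia in humans, had 12821 and 13120.5 in GFP-positive cells and 11519 and 11700.0 in GFP-negative cells and rose by 0.16 ± 0.02 (adjusted p = 0.000463). Rps26, which sits at the mRNA exit of the small subunit, had 12520.2 and 11898 in GFP-positive cells and 10308 and 10644 in GFP-negative cells and rose by 0.22 ± 0.03 (adjusted p = 0.000502). In all 3 both GFP-positive arrays lay above both GFP-negative arrays. Rpl22, which T cell development in mice requires, rose by 0.18 ± 0.02 and 0.20 ± 0.04 on 2 probe sets, and on another, 1448398_s_at, differed by -0.18 ± 0.09 without a call (adjusted p = 0.109). Rps2, a protein near the entry of the mRNA channel, rose by 0.29 ± 0.03, and the calls of Rplp0, Rps26, Rps2 and these 2 Rpl22 probe sets held in every alternative run, while that of Rps19 was lost with eBayes without trend (adjusted p = 0.0631).

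Other members of that kind did not pass the test or depended on the scale. Rpl11 had 13748 and 13978 in GFP-positive cells and 13205 and 13549.6 in GFP-negative cells, a difference of 0.05 ± 0.02 (adjusted p = 0.0867). Rps3, which also acts in DNA repair, differed by 0.05 ± 0.03 on its brightest probe set (adjusted p = 0.11), and Rps15 by -0.07 ± 0.04 (adjusted p = 0.117). Rplp2, another stalk protein, was called higher, by 0.07 ± 0.02, a difference that was -0.0048 on the deposited scale. Among brightest probe sets called lower, Rpl12 differed by -0.45 ± 0.11, Rpl27a by -0.11 ± 0.04, Rps4x by -0.11 ± 0.04, Rpl4 by -0.10 ± 0.03 and Rpl13a by -0.07 ± 0.03. On a common median these 5 differences were 0.18, 0.012, 0.018, 0.022 and 0.053, so their direction was not settled. Rps24 and Rps20 kept their direction, with differences of -0.30 ± 0.04 and -0.14 ± 0.04 on their brightest probe sets, though the call of Rps20 was lost in 6 alternatives. Without spleen GFP-negative replicate 1 the calls of Rplp2, Rpl27a, Rps4x, Rpl4, Rpl13a and Rps20 on these probe sets were lost (adjusted p = 0.0992, 0.344, 0.192, 0.0744, 0.0675 and 0.101).

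The largest differences in splenic cells on a gene's brightest tested probe set were all higher in GFP-positive cells. Rpl14, a protein of the large subunit, had 3013 and 2949.9 in spleen GFP-positive cells and 636 and 329.6 in spleen GFP-negative cells. It rose by 2.70 ± 0.25 (adjusted p = 1.9e-05), and its values in BCR-ABL1 cells, 2649 and 2676 (GFP-positive) and 2529 and 2646 (GFP-negative), lay near those of the spleen GFP-positive arrays. Only the 2 spleen GFP-negative arrays stood apart, and they also differed from each other by more than the arrays of any other group did.

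Rps27l had 8070.3 and 8504 in spleen GFP-positive cells and 3883 and 4112 in spleen GFP-negative cells, groups far from overlapping. It rose by 1.05 ± 0.04 (adjusted p = 3.15e-07), and its other probe sets rose by 1.10 ± 0.06 and 1.82 ± 0.07. Rps27, a zinc finger protein of the small subunit, had 866 and 999 in spleen GFP-positive cells and 404 and 444 in spleen GFP-negative cells and rose by 1.13 ± 0.11 (adjusted p = 2.25e-05). Rps27l therefore rose on 3 of 3 probe sets and Rps27 on its only one. Rps27, Rpl14 and Rps6 each had a single tested probe set, below the brightest 1%. In some genes given below, such probe sets rose while brighter ones of the same gene did not. For Rps27, Rpl14 and Rps6 no brighter member probe set was available to compare. Rps6 had 4329 and 4274 in spleen GFP-positive cells and 3004 and 2575 in spleen GFP-negative cells and rose by 0.63 ± 0.07 (adjusted p = 5.32e-05). For Rps6 the spleen GFP-positive values lay above both spleen GFP-negative values and below all 4 BCR-ABL1 values.

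Among the other paralogs, Rps4l and Rpl39l had low signals. Rps4l had 239 and 294 in spleen GFP-positive cells and 72.5 and 52.8 in spleen GFP-negative cells and rose by 2.10 ± 0.20 (adjusted p = 2.33e-05). The spleen GFP-positive arrays stood above the other 6, the highest of which had 72.5. Rpl39l, a paralog of Rpl39 that is enriched in mouse testis, had 129.6 and 104 in spleen GFP-positive cells and 66.9 and 67.1 in spleen GFP-negative cells and rose by 0.79 ± 0.13 (adjusted p = 0.000767). It was at the floor of 32 on all 4 BCR-ABL1 arrays, so only a bound is known there. Rpl39 differed by 0.19 ± 0.13 in splenic cells and Rpl3l, the paralog of Rpl3 found in muscle, by -0.27 ± 0.19, neither of them called (adjusted p = 0.216 and 0.226). Without the spleen GFP-positive arrays, Rps4l and Rpl39l fell below the filter on low signals (mean log2 of 5.56 and 5.36, filter at 5.67). Rpl39l also fell below it without the spleen GFP-negative arrays (5.62). Both genes had to be high in splenic cells to be tested, so their calls, here and below, are a description. They are the only tested members below the filter without 1 group. The splenic calls of Rpl14, Rps27l, Rps27 and Rps6 held in all 18 alternatives. The myeloid and T cell markers and the 3′ to 5′ ratios given above differ between the same arrays, and their part in these differences was not tested.

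**Figure D2:**
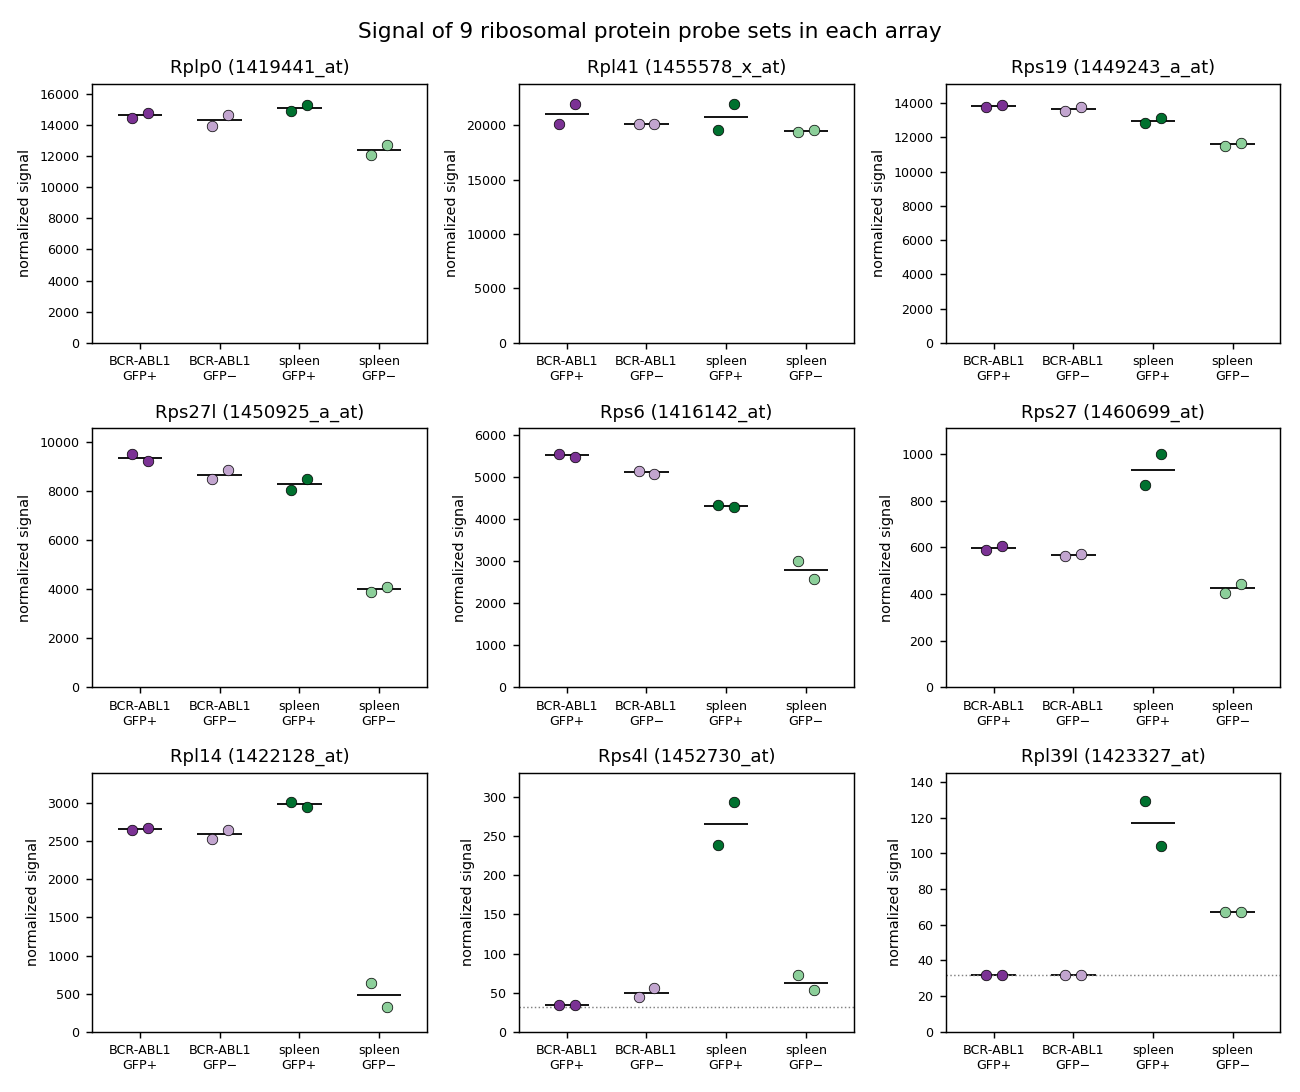
Normalized signal (y axis, from 0) of 9 ribosomal protein probe sets on each of the 8 arrays, by group, with points for arrays and a line at the mean of 2. The spleen GFP-negative arrays are lowest for Rplp0, Rps19, Rps27l, Rps6, Rps27 and Rpl14, the spleen GFP-positive arrays are highest for Rps27, Rpl14, Rps4l and Rpl39l, and the dotted line marks the floor of 32.

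Probe sets of 1 gene did not always agree in splenic cells. Of 21 genes with several tested probe sets, 8 had calls in both directions: Rps9, Rps10, Rps18, Rps20, Rps24, Rps29, Rpl13a and Rpl27a. On the deposited scale 10 genes had calls in both directions, these 8 with Rpl37a and Rpl41, and on a common median 3 had them, Rps24, Rps29 and Rpl41. In 3 genes, Rpl27, Rpl35 and Rps27l, every tested probe set was called higher, and in Rps4x both were called lower, 1 of them with a direction that depended on the scale. In BCR-ABL1 cells no gene had calls in both directions, since no probe set was called. Over all probe sets 44.9% were called higher and 33.3% lower in splenic cells. How often other genes with several probe sets had such calls was not computed. These counts are therefore a description and not a trait of ribosomal protein genes.

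Rps20, a protein of the head of the small subunit, shows the spread. On 1421935_at it had 484 and 427 in spleen GFP-positive cells and 88.2 and 75.5 in spleen GFP-negative cells and rose by 2.48 ± 0.13 (adjusted p = 7.63e-07). On 1450417_a_at it had 337 and 268 against 63.9 and 32 and rose by 2.73 ± 0.30, a value that rests in part on the floor in 1 array. On 1456373_x_at it had 14253 and 13004 in spleen GFP-positive cells and 16017 and 15371 in spleen GFP-negative cells and was called lower, with a difference of -0.20 ± 0.05 (adjusted p = 0.00378), a call lost on a common median (-0.074, adjusted p = 0.307) and with eBayes without trend. The 2 dimmer probe sets separated the groups several-fold in 1 direction, and the brighter ones by a small amount in the other, with -0.14 ± 0.04 on 1456436_x_at.

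Rps24, whose mRNA is known to be spliced in more than 1 form at its 3′ end, had 6 tested probe sets, all of them called. On 1455195_at it had 238 and 208 in spleen GFP-positive cells and 749 and 717 in spleen GFP-negative cells and fell, with a difference of -1.72 ± 0.14 (adjusted p = 9.27e-06). On 1436500_at it had 65.6 and 69.2 in spleen GFP-positive cells and 36.7 and 38 in spleen GFP-negative cells and rose by 0.85 ± 0.13 (adjusted p = 0.000344). The other 4, all among the brightest 1%, lay between -0.50 and -0.12, so 5 of 6 were lower in GFP-positive cells.

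Rps18 also had 6 tested probe sets, of which 1421838_at rose by 1.21 ± 0.20 and 1450390_x_at by 1.73 ± 0.30, on which 1 array was at the floor. On 1421837_at it had 224 and 219 in spleen GFP-positive cells and 384 and 428 in spleen GFP-negative cells, a difference of -0.87 ± 0.18 whose call was lost on a common median (adjusted p = 0.155). Its 3 probe sets among the brightest 1% were not called and lay between -0.11 and 0.04. Rpl13a rose by 0.90 ± 0.04 and 0.58 ± 0.04 on the 2 probe sets below the brightest 1% and had differences of -0.10 ± 0.04 and -0.07 ± 0.03, called lower, on the 2 brightest. On a common median these were 0.043 and 0.053.

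Rps10 rose by 1.15 ± 0.18 on 1436384_at and was called lower on 1438723_a_at (-0.19 ± 0.04, but -0.038 and not called on a common median) and on 1456497_x_at (-0.09 ± 0.03, but 0.052 on a common median), with 3 others not called. Rpl27a rose by 1.02 ± 0.18 on 1419799_at, Rps9 rose by 0.65 ± 0.13 on 1426958_at and was called lower on 1434624_x_at (-0.30 ± 0.08, a call lost in 4 alternatives), and Rps29 rose by 0.13 ± 0.03 and 0.12 ± 0.02 on 2 probe sets and fell on 1438859_x_at (-0.27 ± 0.03). Rpl41 and Rps3 showed a like contrast between probe sets without opposite calls on the normalized scale. Rpl41 fell on 1433530_at (-1.08 ± 0.16) and 1454639_x_at (-0.75 ± 0.13) and was not called on its other 2. Rps3 rose by 1.45 ± 0.12 on 1455600_at, with 3936 and 3286 in spleen GFP-positive cells and 1457 and 1193 in spleen GFP-negative cells. Probe sets whose name ends in x_at may bind related transcripts, which for ribosomal proteins include copies of pseudogenes, and they made up 40 of the 98 members.

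**Figure D3:**
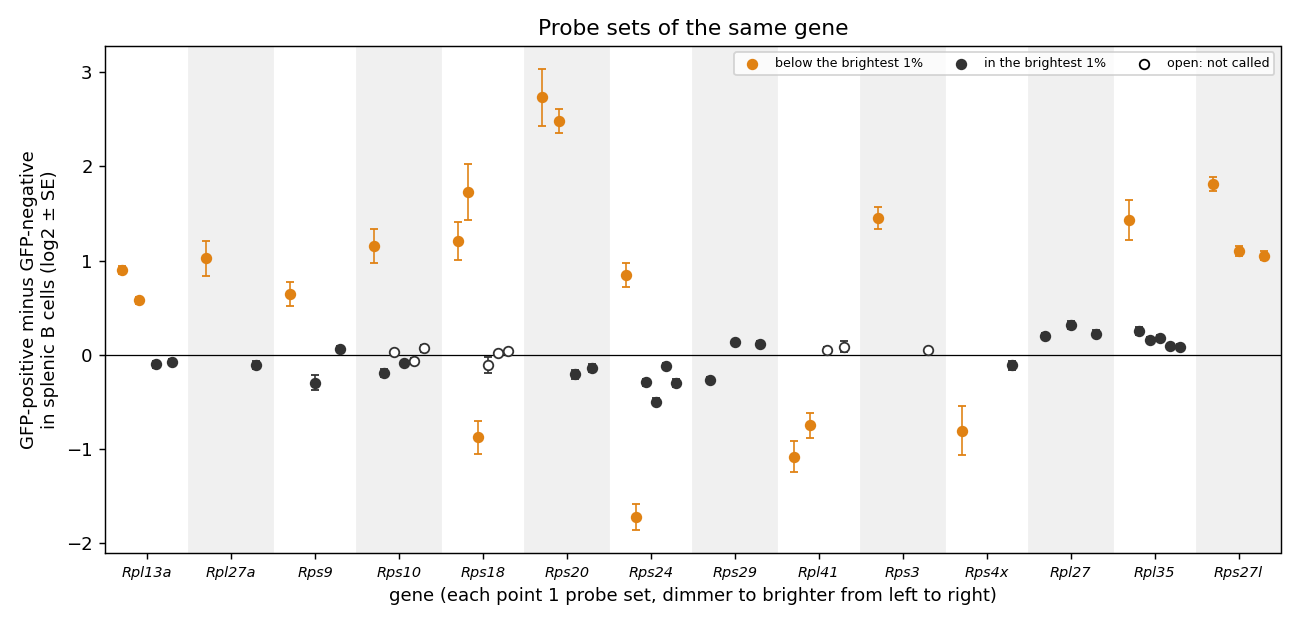
GFP-positive minus GFP-negative difference in splenic cells labelled as B cells (log2 ± SE, y axis) of each tested probe set of 14 genes, ordered within a gene from the dimmer to the brighter. Orange points lie below the brightest 1% of probe sets and dark points within it, and open points were not called. Dark points of these genes lie between -0.50 and 0.32, while orange points reach 2.73 for Rps20 and -1.72 for Rps24.

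The difference between the GFP effects was tested directly as an interaction, BCR-ABL1 minus spleen. Of 94 members, 10 were higher and 39 lower (10.6% and 41.5%), against 29.5% higher and 40.3% lower over all probe sets. The median was -0.089 for the large subunit and -0.038 for the small subunit, against -0.18 over all probe sets. On the deposited scale 10 members were higher and 38 lower, and on a common median 2 were higher and 59 lower. Over all 27022 probe sets, 6480 were higher and 12640 lower on the deposited scale, and 5553 and 14032 on a common median. Since no member was called within BCR-ABL1 cells, these differences carry mainly the splenic values: Rpl14 was -2.66 ± 0.35, Rps4l -2.63 ± 0.28, Rps27 -1.07 ± 0.15, Rps27l -0.94 ± 0.06 and Rps6 -0.52 ± 0.10, all called. Rps4l passed the filter on low signals only through the spleen GFP-positive arrays, so its value is a description. Among brightest probe sets of a gene, only Rps24 was called higher, by 0.29 ± 0.05 (adjusted p = 0.00173). Over the 94 probe sets the GFP effects of both sources, which share no array, had a Pearson correlation of 0.013 and a Spearman correlation of 0.45, given as a description.

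At a matched reporter state, ribosomal protein signals of BCR-ABL1 and splenic GFP-positive cells were mostly close. Of 94 members, 4 were higher and 9 lower in BCR-ABL1 GFP-positive cells (4.26% and 9.57%), where 22.4% of all probe sets were higher and 21.6% lower. The median difference was -0.037 for the large and 0.020 for the small subunit, with 1 higher and 7 lower of 43 and 3 higher and 2 lower of 51, and -0.026 over all probe sets. On the deposited scale 7 were higher and 9 lower, and on a common median 3 were higher and 13 lower. Over all 27022 probe sets, 6513 were higher and 5632 lower on the deposited scale, and 6032 and 6160 on a common median. Of the 32 tested members below the brightest 1%, 3 were higher and 6 lower, with a median size of 0.21. Over all tested probe sets there, 22.5% were higher and 21.8% lower, with a median size of 0.31. The other 389 probe sets of the brightest 1% had 66 higher and 53 lower, with a median size of 0.065. In the 62 brightest members, with a median size of 0.025, 1 was higher and 3 lower and all lay between -0.13 and 0.094. The counts were 2 higher without BCR-ABL1 GFP-positive replicate 1 or without spleen GFP-positive replicate 1, and 5 lower without BCR-ABL1 GFP-positive replicate 2.

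Among brightest probe sets of a gene, Rps6 was higher in BCR-ABL1 GFP-positive cells by 0.36 ± 0.07 (adjusted p = 0.00362), as were Rps27l by 0.18 ± 0.04 (adjusted p = 0.0135) and Rps19 by 0.09 ± 0.02 (adjusted p = 0.0171). Rps4l was lower in BCR-ABL1 GFP-positive cells by a difference of -2.95 ± 0.20 (adjusted p = 1.01e-05) and Rps27 by -0.64 ± 0.11 (adjusted p = 0.00172). Rpl39l, at the floor in BCR-ABL1 GFP-positive cells, was at least 3.63-fold lower there than in spleen GFP-positive cells. Rps4l and Rpl39l passed the filter on low signals only through splenic arrays, so their differences here are a description. Rpl22 had calls in both directions: 0.72 ± 0.09 on 1448398_s_at, with 1419 and 1390.3 in BCR-ABL1 GFP-positive cells and 892 and 819 in spleen GFP-positive cells, and -0.10 ± 0.02 on 1453118_s_at. The other lower calls were those of the large subunit proteins Rpl13a (-0.23 ± 0.04 and -0.19 ± 0.04 on 2 of 4 tested probe sets), Rpl27 (-0.11 ± 0.04, 1 of 3), Rpl35 (-0.13 ± 0.04, 1 of 6) and Rpl37a (-0.49 ± 0.14, 1 of 3). The least negative differences of the last 3 genes were -0.077, -0.037 and -0.0038.

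In GFP-negative cells the sources differed more. Of 94 members, 43 were higher and 19 lower in BCR-ABL1 GFP-negative cells (45.7% and 20.2%), and over all probe sets 45.5% were higher and 33.4% lower. The median was 0.061 for the large and 0.043 for the small subunit, against 0.17 over all probe sets. On the deposited scale 34 were higher and 21 lower, and on a common median 59 were higher and 10 lower. Over all 27022 probe sets, 14407 were higher and 7287 lower on the deposited scale, and 15488 and 6460 on a common median. With eBayes without trend 23 were higher and 10 lower. The lower count was 12 without BCR-ABL1 GFP-negative replicate 2 or without spleen GFP-negative replicate 1. Rpl14 was higher in BCR-ABL1 GFP-negative cells by 2.50 ± 0.25, Rps27l by 1.12 ± 0.04, Rps6 by 0.88 ± 0.07, Rps27 by 0.42 ± 0.11 and Rps2 by 0.27 ± 0.03. Rpl39l was at least 2.09-fold lower in BCR-ABL1 GFP-negative cells, a description, since it passed the filter on low signals only through splenic arrays. Rps24 was lower on its brightest probe set, with a difference of -0.30 ± 0.04, and of its 6 tested probe sets 5 were called lower and 1 higher. In this comparison 6 of 21 genes with several tested probe sets had calls in both directions: Rpl13a, Rps9, Rps10, Rps20, Rps24 and Rps29. How often other genes had such calls was not computed. This comparison uses the same spleen GFP-negative arrays as the GFP comparison in splenic cells, so its values are not a second measurement of that group.

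The other genes of the translation machinery, taken by the brightest tested probe set of each, give a setting for these values. Of 5 ribosomal proteins named outside the pattern, 3 were called higher in spleen GFP-positive cells: Rpl7l1 (0.69 ± 0.05), Rpl22l1 (0.37 ± 0.08) and Rpsa (0.28 ± 0.02), the laminin receptor protein of the small subunit. Rps3a1 (-0.05 ± 0.03) and Fau (0.00 ± 0.02) were not called. Of 15 other genes whose mRNAs carry a TOP tract, 11 were higher and 2 lower, with a median of 0.23, where 44.9% of all probe sets were higher and 33.3% lower with a median of 0.17, and the list was not tested against them. Pabpc1, the poly(A) binding protein, rose by 0.46 ± 0.03, Eif3h by 0.41 ± 0.04 and Btf3 by 0.40 ± 0.04. In BCR-ABL1 cells 0 of the 15 and 0 of the 5 were called, with 0 of each at an unadjusted p under 0.05 in limma. Over all probe sets 1.57% were called higher and 1.23% lower there.

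Among 10 genes that regulate the translation of such mRNAs, 5 were higher and 1 lower in spleen GFP-positive cells, with a median of 0.44. Over all probe sets 44.9% were higher and 33.3% lower, with a median of 0.17, and the list was not tested against them. The gene called lower was Tsc1, with a difference of -0.53 ± 0.08. Eif4ebp1, an inhibitor of cap-dependent translation, rose by 1.51 ± 0.18, Tsc2, an inhibitor of mTOR signalling, by 1.21 ± 0.11 and Rptor, the mTOR partner, by 1.15 ± 0.15. In BCR-ABL1 cells 1 of the 10 was called, where 1.57% and 1.23% of all probe sets were called higher and lower. The called gene was Mtor, with 1914 and 2058 in GFP-positive cells and 4899 and 4939 in GFP-negative cells, a difference of -1.31 ± 0.07 (adjusted p = 0.000113). The groups did not overlap, and the splenic values were 1563 and 1755 (GFP-positive) and 1564 and 1622 (GFP-negative), a difference of 0.06 ± 0.07 that was not called.

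The proteins of the mitochondrial ribosome, which translates the mRNAs of the mitochondrial genome, had larger differences in splenic cells. Of 76 genes, 75 were higher and 1 was lower in spleen GFP-positive cells, with a median of 0.86, against 21 higher and 7 lower of 43 cytosolic genes with a median of 0.067. Over all probe sets 44.9% were higher and 33.3% lower. In BCR-ABL1 cells 0 of 76 were called in limma, where 1.57% and 1.23% of all probe sets were called higher and lower. At an unadjusted p under 0.05 there were 1 higher and 0 lower, against 1763 and 1354 of all 27022 probe sets. Mrpl24 was the exception in splenic cells, with 5054 and 5348 in GFP-positive cells and 7220.4 and 7149 in GFP-negative cells, a difference of -0.47 ± 0.05. No test was made of the difference between these lists, and most cytosolic members lie in the brightest 1% of probe sets. Over all tested probe sets the median size of the splenic difference was 0.19 in the brightest 1% and 0.85 below it.

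**Figure D4:**
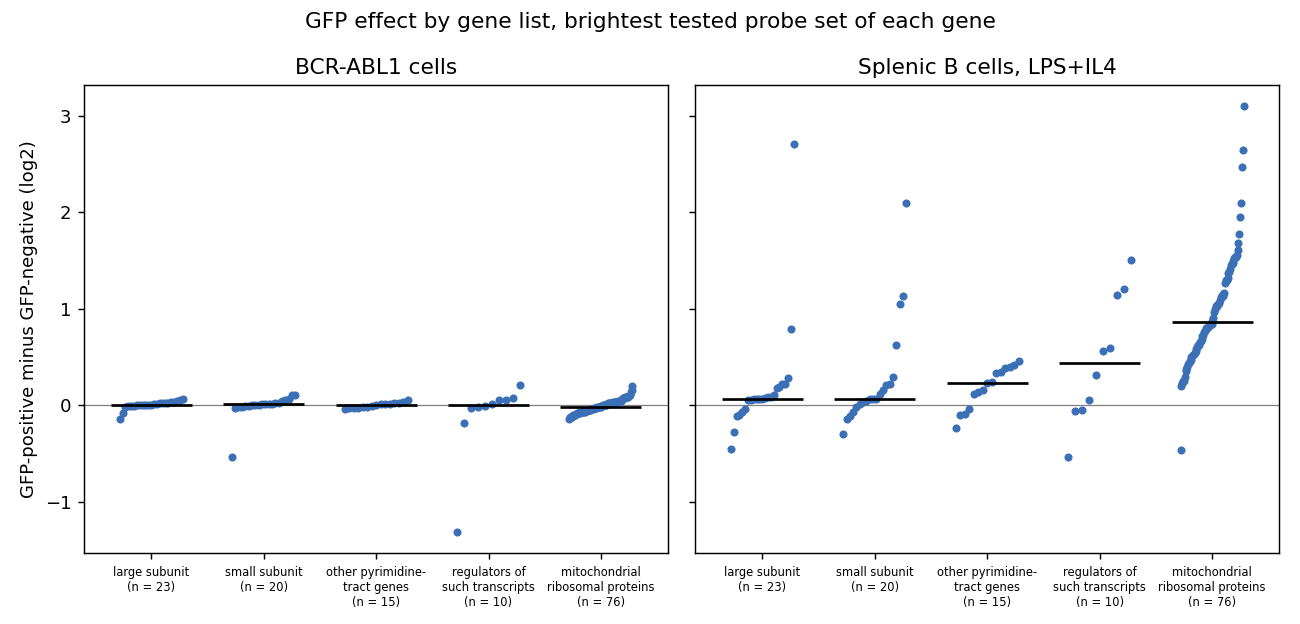
GFP-positive minus GFP-negative difference (log2, y axis) of the brightest tested probe set of each gene, sorted within 5 gene lists, in BCR-ABL1 cells (left) and splenic cells labelled as B cells (right), with a line at each median. In splenic cells the medians are 0.067 and 0.069 for the large and small subunit, 0.23 and 0.44 for other pyrimidine-tract genes and their regulators and 0.86 for mitochondrial ribosomal proteins. In BCR-ABL1 cells all 5 medians lie near 0 and the point at -1.31 is Mtor.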

How the data were processed

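Total RNA was measured on 8 mouse Affymetrix arrays, 2 per group. Per the submitters' processing notes GCOS 1.3 was used. The deposited table gives linear signal intensities of 45101 probe sets, and the sources used here do not state how the authors summarised or scaled them. Trimmed means (2% trimmed) differed by a ratio of up to 1.24. After 64 control probe sets were removed, arrays were quantile normalized, values under 32 were set to 32, and log2 was taken. Only probe sets whose mean log2 reached the 40th percentile, a signal of 51.0, were tested, 27022 in all. limma 3.58.1 in R 4.3.3 (lmFit on group means, which leaves 4 residual degrees of freedom, and eBayes with trend) gave 5 contrasts, with Benjamini-Hochberg adjustment over all probe sets tested. Exact permutation of 2 arrays against 2 could not go below p = 0.333, so calls rest on the model. Array number limits precision. The fit was tested on simulated data. Members, gene lists and tests were chosen with earlier results of these data known. Named genes were, by brightest tested probe set, up to 6 called in each direction for the GFP effects and their difference, up to 5 for the source differences, a set fixed by role, all genes with opposite calls, the extremes of signal, and up to 3 per other list, further names being chosen after their values were seen. Alternatives were other scales, floors of 16 and 64, no filter or a 60th percentile filter, eBayes without trend, the brightest probe set of each gene, no x_at or s_at probe sets, the replicate number as a block, the 4 arrays of a source alone, and leaving out each array. Symbols follow the platform annotation, and all 45 matched RefSeq by Entrez ID.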

Additional observations from a re-analysis of the deposited data

Results flagged for a closer look

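For 31 of 57 named and tested member probe sets the GFP effects in the 2 sources differed by the interaction test (BCR-ABL1 minus spleen, log2, limma adjusted p under 0.05), 24 of them lower and 7 higher, where 40.3% of all probe sets were lower and 29.5% higher. Some of these probe sets were named for this same difference, so the count describes the choice as well as the genes. Among genes with 1 tested probe set the differences were -2.66 for Rpl14, -2.63 for Rps4l, -1.07 for Rps27, -0.79 for Rpl39l (whose BCR-ABL1 arrays were at the floor), -0.52 for Rps6, -0.30 for Rps2, -0.25 for Rplp0, -0.19 for Rps26, -0.14 for Rps19 and -0.085 for Rplp2. Rps27l was -0.94 on its brightest probe set, and Rpl22 was -0.18 and -0.16. Rps4l and Rpl39l passed the filter on low signals only through splenic arrays, so their values are a description.

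The genes with opposite calls in splenic cells gave the rest. Rps20 was -2.85 and -2.57 on its dimmer probe sets and 0.19 on a bright one. Rps18 was -1.96 and -1.39, Rpl27a -0.98, Rps9 -0.56, and Rpl13a -0.87 and -0.58. Rps10 was -1.24 and 0.21, and Rps29 -0.11 and 0.27. Rps24 was -1.02 on 1 probe set and 1.55, 0.47, 0.29 and 0.24 on 4 others. In each of these the effect in BCR-ABL1 cells was not called, and the spleen GFP-negative arrays also differ in myeloid markers, T cell markers and 3′ to 5′ ratios, whose part was not tested.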

How the results depend on the processing

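In BCR-ABL1 cells 0 members were called in each direction under every alternative run. In splenic cells the lower count was 6 after all arrays were shifted to 1 common median, 13 with no filter, 11 with eBayes without trend and 14 with the 4 arrays of the source alone, against 22. The brightest probe set of each gene gave 21 higher and 7 lower, and members without x_at and s_at probe sets gave 28 and 9. Both take fewer probe sets. For the difference between the GFP effects (10 higher, 39 lower), the higher count was 2 after the shift, 6 with no filter, 4 without trend, 1 by brightest probe set, 18 with the replicate block and 3 without x_at and s_at probe sets, and the lower count was 59 after the shift, 21 without trend and 15 by brightest probe set. For BCR-ABL1 against spleen in GFP-positive cells (4 higher, 9 lower), the higher count was 7 on the deposited scale and 2 without trend, and the lower count 4 by brightest probe set and 5 without x_at and s_at probe sets. In GFP-negative cells (43 higher, 19 lower), the higher count was 23 without trend and 20 by brightest probe set, and the lower count 10 after the shift, 10 without trend, 6 by brightest probe set and 7 without x_at and s_at probe sets. Leaving out 1 array gave 2 to 6 higher and 5 to 12 lower in GFP-positive cells, and 12 to 19 lower in GFP-negative cells. The counts over all probe sets also moved with the scale, as given above. The cause of these changes was not tested.

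With the replicate block, splenic cells had 52 higher and 25 lower. Same-numbered arrays had correlations of replicate differences from 0.11 to 0.27 over 27022 probe sets, but with 2 numbers per group this does not show a pairing.

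In splenic cells 8 called probe sets, and 1 that was not called, turned direction. On the deposited scale Rpl12 was 0.022, Rplp2 -0.0048 and Rpl22 (1448398_s_at, not called) 0.34. After the shift Rpl12 was 0.18, Rps4x 0.018, Rpl27a 0.012, Rpl4 0.022, Rpl13a 0.053 and 0.043, Rpl22 (1448398_s_at) 0.49 and Rps10 (1456497_x_at) 0.052. Of 44 splenic calls of named probe sets, 26 held in every alternative and 18 did not, 11 of these when 1 array was left out. Signals at the floor of 32 have no order.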

Other observations

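Members' share of the total deposited signal was 2.64% to 2.67% on the BCR-ABL1 GFP-positive arrays, 2.63% to 2.65% on the BCR-ABL1 GFP-negative arrays and 2.66% to 2.68% on the spleen GFP-positive arrays, and 2.95% to 3.05% on the spleen GFP-negative arrays. By the ending of the probe set name, 26 tested members ending in _at alone had a median splenic difference of 0.47 (17 higher, 5 lower), 26 ending in a_at one of 0.065 (11 higher, 4 lower) and 39 ending in x_at one of 0.031 (15 higher, 13 lower), and 6, 23 and 31 of them lay in the brightest 1%. Among mitochondrial ribosomal proteins the highest differences between spleen GFP-positive and GFP-negative cells, picked after their values were seen, were Mrps27 (3.10), Mrpl14 (2.64) and Mrpl50 (2.46). In BCR-ABL1 against spleen, GFP-positive cells, 3 of the 76 mitochondrial genes were higher and 41 lower, where 22.4% of all probe sets were higher and 21.6% lower. In GFP-negative cells 67 were higher and 2 lower, where 45.5% of all probe sets were higher and 33.4% lower.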
